A study of Chlorocebus aethiops vervet with 14 samples.

Results

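ITGA8, SPON2 and TLL1 are 3 genes of cell adhesion and the extracellular matrix, each of them selected on higher signal in magnocellular than in parvocellular captures of the vervet lateral geniculate nucleus. They are 3 of the 14132 genes that had at least 1 probe set with a single gene symbol on the rhesus array. Every rhesus probe set with 1 of these symbols was taken, which gave 6 of the 24956 probe sets with a single symbol. Of these 6, 3 reached the signal filter of the test, 1 for each gene, out of 15720 single-symbol probe sets that reached it. The other 3 are described by their signal alone.

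ITGA8 encodes the alpha8 subunit of an integrin that pairs with beta1 at the cell surface and binds matrix proteins such as nephronectin, fibronectin and osteopontin. SPON2, also called mindin, is a secreted matrix protein of the spondin family that can bind integrins and that promoted outgrowth of rat hippocampal neurons in culture. TLL1, tolloid-like 1, is a secreted astacin metalloprotease of the BMP1 family that trims procollagens and cleaves chordin, an antagonist of bone morphogenetic proteins (BMPs). In the visual thalamus the geniculate relays signals from the retina to the cortex, with large relay cells in its magnocellular (M) layers and smaller ones in its parvocellular (P) layers.

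The study compared M with P tissue from normal adult male vervet monkeys. The 12 rhesus arrays form 4 groups of 3 animals each: cell bodies of neurons cut from the M layers (M neurons) or the P layers (P neurons) by laser capture under cresyl violet stain, and captures across whole M or P layers (M layers, P layers), where cell bodies lie among neuropil and glia. Each capture took about 3000 laser pulses, and its RNA passed through 2 rounds of amplification. Another 2 arrays carried M samples on a human chip. No group had a treatment or a genetic change. The labels do not say whether one set of animals served for every group.

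Signals are MAS5 values on a linear scale, and the probes were made for rhesus or human transcripts and not for vervet ones, so signals of different probe sets cannot be set against each other. Differences are on the log2(signal + 16) scale with the standard error (SE) of the model, which makes the change of a dim probe set look smaller than it is. The median signal of an array lay between 11.9 and 14.8, which gives a mark for a dim probe set. In such bulk captures, fewer cells of a type and less RNA per cell cannot be told apart. Array numbers 1 to 3 come from the titles.

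ITGA8, the receptor subunit, was read by probe set MmugDNA.12745.1.S1_at. Its signal in M neurons was 116, 102 and 170.1 on arrays 1, 2 and 3, and in M layers it was 90.1, 74.1 and 96.9. In P neurons it was 12.9, 6.69 and 24.99, and in P layers it was 11.7, 2.33 and 16.8. Every M array was bright and every P array lay near or under its array's median, with no overlap between them. The group means were 129.6 ± 35.7 in M neurons, 87.0 ± 11.7 in M layers, 14.9 ± 9.30 in P neurons and 10.3 ± 7.32 in P layers (SD, n = 3 each). The mean signal was 8.71 times as high in M as in P neurons and 8.47 times as high in M as in P layers. On the log2 scale M minus P was 2.25 ± 0.25 (SE) in neurons and 2.01 ± 0.25 in layers. These sizes rest partly on the dim P arrays, since 3 of the 6 P arrays were under their own array median.

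SPON2, the secreted matrix protein, was read by probe set MmugDNA.16895.1.S1_at. Its signal in M neurons was 102, 416 and 118, and in M layers it was 35.1, 229.7 and 82.2. In P neurons it was 19.3, 28.4 and 25.3, and in P layers it was 26.9, 18.7 and 11.04. Again no P array reached an M array, but array 2 stood far above the others in both M groups and the M layer array 1 lay close to the P arrays. The group means were 212 ± 177 in M neurons, 116 ± 102 in M layers, 24.3 ± 4.61 in P neurons and 18.9 ± 7.93 in P layers (SD, n = 3 each). M minus P was 2.24 ± 0.44 in neurons and 1.65 ± 0.44 in layers. The residual SD of SPON2 in the model was 0.79, against 0.36 for ITGA8 and 0.32 for TLL1. Without number 2 in all 4 groups, an alternative chosen after seeing the data, M minus P of SPON2 was 1.72 in neurons and 1.06 in layers.

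TLL1, the protease, was read by probe set MmunewRS.874.1.S1_at. Its signal in M neurons was 227, 206 and 264, and in M layers it was 119, 165 and 225. In P neurons it was 75.9, 101 and 53.7, and in P layers it was 65.1, 41.1 and 47.3. The P arrays of this probe set were all above their array medians, so neither side of the difference rests on dim signals. The group means were 232 ± 29.1 in M neurons, 169.8 ± 53.0 in M layers, 77.0 ± 23.9 in P neurons and 51.1 ± 12.5 in P layers (SD, n = 3 each). The mean signal was 3.02 times as high in M as in P neurons and 3.32 times as high in M as in P layers, and M minus P was 1.44 ± 0.24 in each capture.

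**Figure D1:**
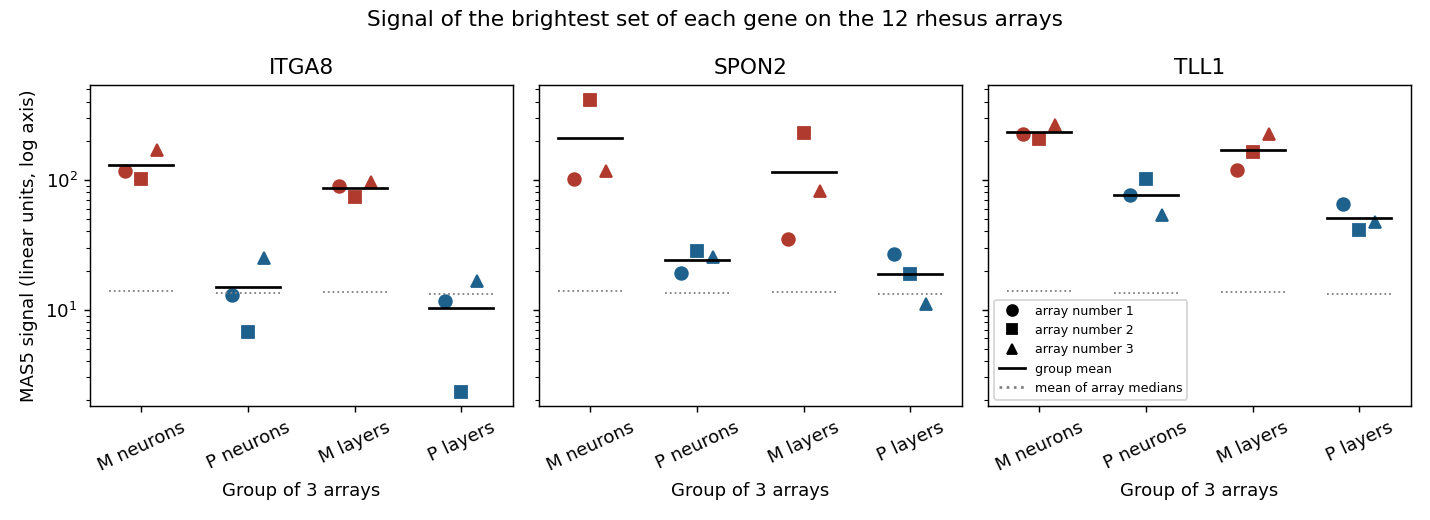
MAS5 signal (linear units on a log axis) of the brightest probe set of ITGA8, SPON2 and TLL1 on each rhesus array, with 3 arrays a group, group means as bars and the mean of the array medians as dotted lines. In each gene the M arrays (red) lie above the P arrays (blue), SPON2 is most spread in the M groups, and ITGA8 in P layers reaches down to 2.33.

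Since M against P chose the 3 genes, the values above are a description and no test of that difference is given. Over all 26383 probe sets tested, 0.296% differed between M and P neurons at an adjusted p under 0.05, 0.159% between M and P layers and 0.83% over both captures. By size of M minus P, ITGA8, SPON2 and TLL1 stood at places 4, 5 and 14 of 26383 in neurons and at places 5, 8 and 11 in layers. All M arrays lay above all P arrays of the same capture in 1.17% of probe sets, and all 6 M arrays lay above all 6 P arrays in 0.337%, which is 89 probe sets with the 3 genes among them.

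In each of the 3 genes the group means fell in one order: M neurons, M layers, P neurons, P layers. The step from M layers to P neurons was free of overlap in all 3, and it is the step the genes were chosen by. P neurons overlapped P layers in all 3 genes, and M neurons overlapped M layers in SPON2 and TLL1. The M minus P difference of neurons exceeded that of layers by 0.25 ± 0.36 for ITGA8 and by 0.59 ± 0.63 for SPON2, and for TLL1 this excess was -0.0018 ± 0.33 (SE). None of these 3 differences was larger than its SE in this model, which does not take the array number as a block. With that block the SE of M minus P of SPON2 was smaller, 0.31 in each capture, and the SE of the excess is not given.

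Arrays that share a number were compared within that number. On the log2(signal + 16) scale, M minus P of ITGA8 in neurons was 2.19, 2.38 and 2.18 for numbers 1, 2 and 3, and in layers it was 1.94, 2.30 and 1.78. SPON2 gave 1.74, 3.28 and 1.70 in neurons and 0.25, 2.82 and 1.86 in layers. TLL1 gave 1.40, 0.92 and 2.00 in neurons and 0.74, 1.67 and 1.93 in layers. All 18 of these values had to be above 0, since every M array lay above every P array in each gene. The SPON2 value of 0.25 in the layers of number 1 was the smallest. The added 16 holds down the spread where P arrays are dim: as plain ratios of signal, M over P within a number ran from 5.78 to 31.8 for ITGA8, from 1.31 to 14.7 for SPON2 and from 1.83 to 4.91 for TLL1.

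**Figure D2:**
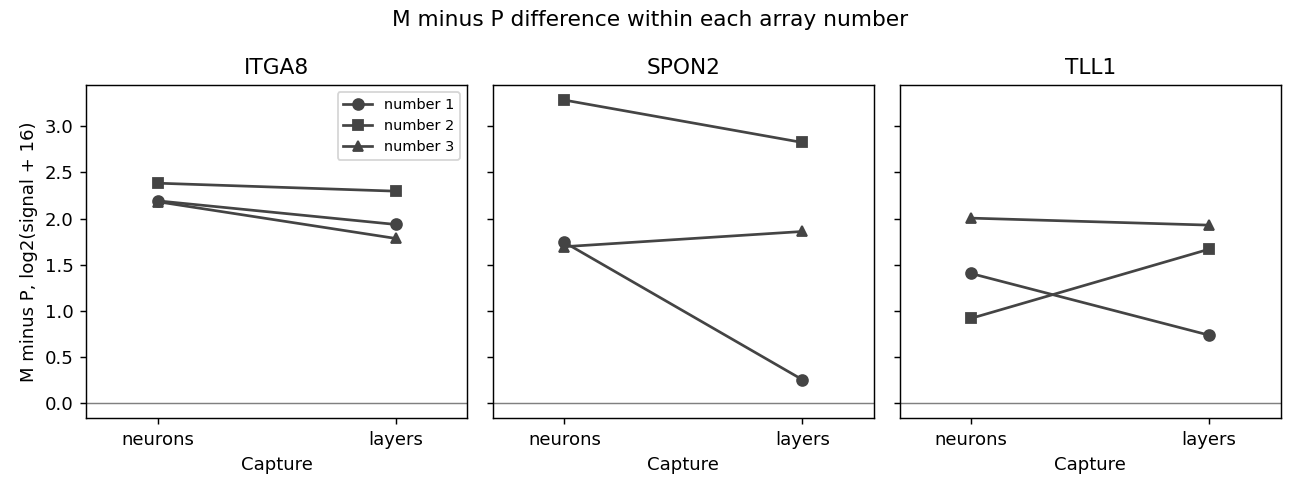
M minus P difference on the log2(signal + 16) scale within each array number, for neuron and whole-layer captures, with 1 line for each number. ITGA8 lies between 1.78 and 2.38 on this scale, on which the added 16 compresses its dim P arrays, and SPON2 between 0.25 in the layers of number 1 and 3.28 in the neurons of number 2.

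The order of the 3 numbers within a group differed between the genes. ITGA8 was highest on number 3 and lowest on number 2 in all 4 groups. One number was highest in all 4 groups in 5.49% of the probe sets tested, and one number highest and another lowest throughout in 0.985%. SPON2 was highest on number 2 in 3 groups and on number 1 in P layers. TLL1 had no common order.

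Arrays had been run on 3 fluidics stations that partly followed the groups, so M minus P was also taken within a station. Station 3 held the 3 M neuron arrays and P neuron array 1, and there M minus P was 2.30 for ITGA8, 2.43 for SPON2 and 1.43 for TLL1. Station 5 held M layer array 3 and the 3 P layer arrays, and there it was 2.14, 1.52 and 1.86. With 1 array on one side these values have no test. Their direction was fixed beforehand, since every M array lay above every P array in each gene, and only their size is described.

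The 3 dimmer probe sets did not show what the brightest ones showed. The second ITGA8 probe set, MmugDNA.35826.1.S1_at, had signals from 0.693 to 21.8, and its highest array was a P neuron array. The TLL1 probe sets MmugDNA.43108.1.S1_at and MmuSTS.932.1.S1_s_at ran from 0.496 to 15.9 and from 0.564 to 13.2. M minus P in neurons was -0.15 ± 0.24 for the ITGA8 probe set and 0.27 ± 0.22 and 0.11 ± 0.20 for those of TLL1. Of these 36 readings only 2 lay above the median of their array, so the signals of these sets were low. The M and P difference of ITGA8 and of TLL1 rests on 1 probe set each. That of SPON2 does too, since it had no other rhesus probe set. Why the probe sets of a gene differed was not tested.

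The human chip was read on 2 arrays of M samples. Their titles name M layers, whereas their source names and protocols name neuronal cell bodies and their instrument records carry the codes of M neuron arrays 1 and 2, so no capture is read from them. The brightest ITGA8 probe set had a signal of 105 and 93.2, at or above 89.0% and 89.8% of all probe sets on its array, and the next had 83.3 and 77.4, at or above 87.2% and 88.3%. The other 2 ITGA8 probe sets ran from 0.913 to 1.98, under the array medians of 11.2 and 9.76. A bright and a dim pair of ITGA8 probe sets was thus present on the human chip too. Both TLL1 probe sets were dim there, from 1.65 to 8.71. For SPON2 no human probe set carried that symbol alone, and no value is given. There was no P sample on the human chip.

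**Figure D3:**
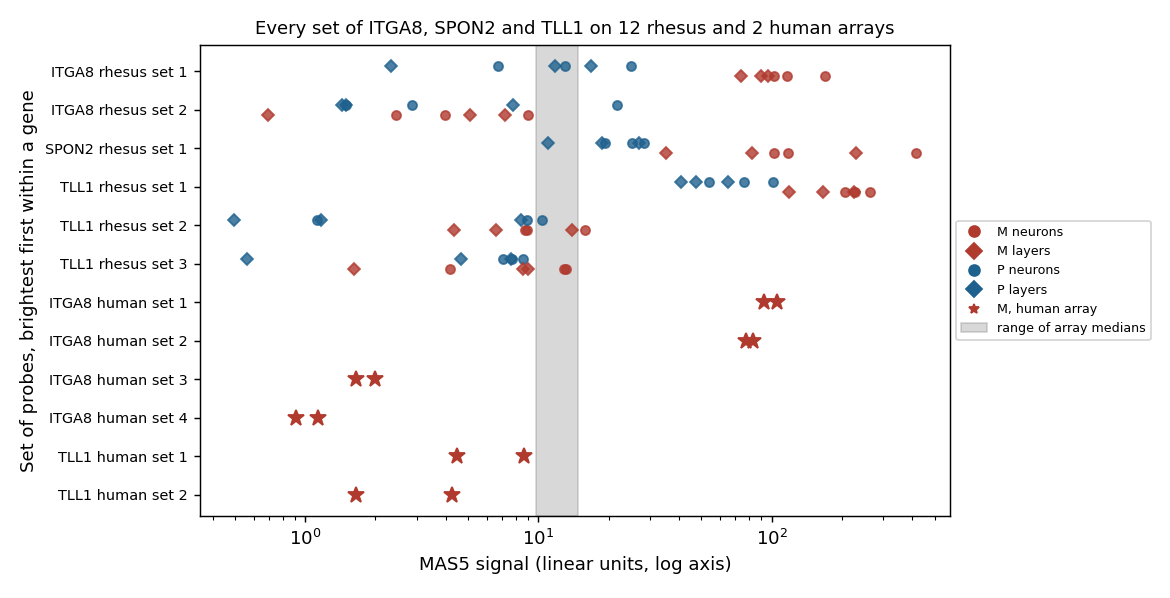
MAS5 signal (linear units on a log axis) of each single-symbol probe set of the 3 genes on 12 rhesus and 2 human arrays, brightest probe set first within a gene and array type. The grey band spans the array medians, and the dimmer sets lie mostly at or left of it in both M and P samples.

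Neuron captures against whole-layer captures is the comparison that the choice of genes did not use. Each gene was higher in neurons than in layers by its mean, and none passed the test in limma without the array number as a block. Over both layer types ITGA8 was 0.35 ± 0.18 higher in neurons (SE, 95% interval -0.02 to 0.73, adjusted p = 0.164 in limma), and SPON2 was 0.52 ± 0.31 higher (-0.13 to 1.18, adjusted p = 0.25). TLL1 was 0.45 ± 0.17 higher (0.10 to 0.80), with an adjusted p of 0.0542 in limma and a p of 0.0134 before adjustment. At the same threshold 24.1% of all probe sets were called in this comparison, so a call is common there.

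Within M tissue the difference between neurons and layers was 0.48 ± 0.25 for ITGA8 (adjusted p = 0.256), 0.82 ± 0.44 for SPON2 (0.268) and 0.45 ± 0.24 for TLL1 (0.249), again in limma. The corresponding values in P tissue were 0.23 ± 0.25 (adjusted p = 0.629), 0.23 ± 0.44 (0.808) and 0.45 ± 0.24 (0.244). ITGA8 was dim in P tissue, with mean signals of 14.9 in neurons and 10.3 in layers, so little of a difference could be measured there. Its P mean of 12.57 lay under the lowest mean tested, 12.65, and its M arrays carried it into the test. This dim P difference also enters its value over both layer types. Of all probe sets, 10.7% were called in M and 10.2% in P. Every M neuron array lay above every M layer array for ITGA8 alone, and 18.6% of probe sets had that order. Within array numbers, neurons exceeded layers in 6 of 6 cases for ITGA8 and TLL1 and in 5 of 6 for SPON2. Numbers were not taken as pairs in this comparison, and the share of all probe sets with such counts was not taken. The median of all probe sets tested was also higher in neurons, by 0.13 in M and 0.15 in P.

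**Figure D4:**
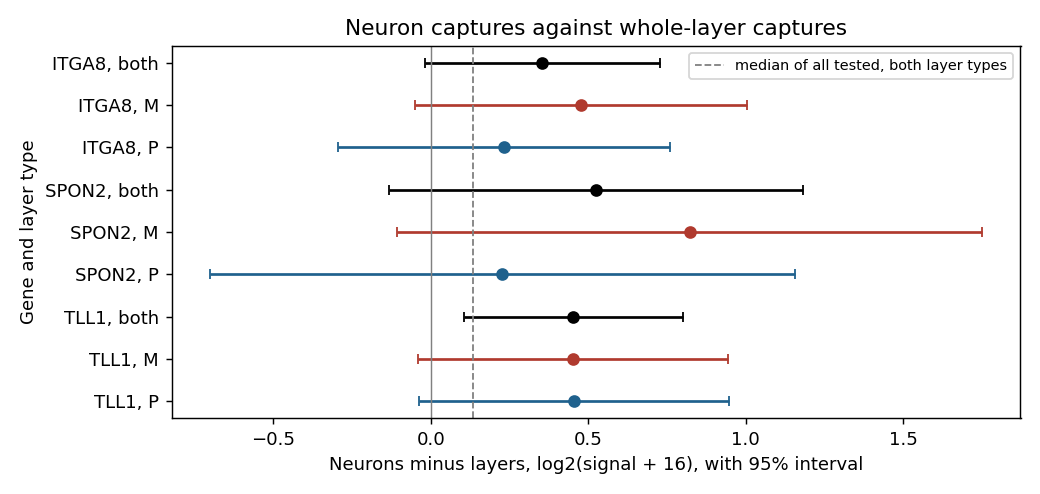
Neurons minus layers on the log2(signal + 16) scale with 95% intervals, for each gene over both layer types (black) and in M (red) or P (blue). The dashed line is the median of all probe sets tested, 0.13, and the TLL1 interval over both types, 0.10 to 0.80, is the only one that lies above 0.

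The size of this comparison depends on how arrays are scaled. As deposited, the median of all tested probe sets was 0.13 higher in neurons, and relative to it the differences were 0.22 for ITGA8, 0.39 for SPON2 and 0.32 for TLL1. Quantile normalization gave 0.24, 0.43 and 0.24, and scaling to 1 trimmed mean gave 0.19, 0.36 and 0.23, with the direction kept. Among the called probe sets 80.9% were higher in neurons as deposited, against 51.9% and 45.3% under these scalings. The call of TLL1 turned on the model and on single arrays. With all 12 arrays and the number as a block its adjusted p was 0.0388. Without the block its adjusted p was 0.0444 without M neuron array 2, 0.027 without P neuron array 3, 0.0205 without M layer array 3 and 0.0446 without P layer array 1, and over 21 alternatives it ran from 0.0205 to 0.318, with a call in 5. SPON2 was called only without M layer array 2, at 0.82 over both types (adjusted p = 0.0344) and at 1.42 in M (0.0382).

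Some markers of cell types differed in each comparison. The summed signal of 6 astrocyte genes was 2519 to 4238 in M neurons, 2810 to 2969 in P neurons, 6539 to 7413 in M layers and 4619 to 5344 in P layers. All 6 had lower values in neurons than in layers and 5 of them passed the test in limma. Between M and P over both captures, without the array number as a block, only GFAP passed (0.81 ± 0.15, adjusted p = 0.0101 in limma). GFAP is the astrocyte filament protein, and its signal was higher in M. The smallest M minus P of the 6 was 0.006, for SLC1A3. The sums of M and P layers did not overlap and those of M and P neurons did, while GFAP was higher on every M than on every P array of the same capture. All 6 astrocyte genes stood above the array median on every array of 3 groups, and 5 did so in P neurons, so astrocyte genes were still measured in the neuron captures.

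Of the 2 neuron genes measured, NEFH, the heavy neurofilament chain, was higher in M than in P over both captures (0.34 ± 0.07, adjusted p = 0.0219 in limma), with every M array above every P array of its capture, and SYT1 had -0.03. The neuron sums were 15301 to 16749 in M neurons, 12893 to 15257 in P neurons, 13823 to 15717 in M layers and 12390.3 to 13876 in P layers. Between neurons and layers, UGT8, 1 of 3 oligodendrocyte genes (-0.97 ± 0.12, adjusted p = 1.22e-05), and P2RY12 (-0.83 ± 0.17, 0.00127) and ITGAM, 2 of 7 microglial genes, were lower in neurons in limma.

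Markers of the cell types that make most matrix outside the brain's own cells were measured as well. The 7 measured fibroblast and meninges genes summed to 209 to 246 in M neurons, 188 to 212 in P neurons, 282 to 574 in M layers and 237 to 322 in P layers. The 4 pericyte and smooth muscle genes summed to 80.1 to 123, 91.4 to 152, 98.8 to 239 and 145 to 155 in the same order, and the 8 endothelial genes to 546 to 739, 613 to 823, 933 to 1445 and 1040.2 to 1270.2. Of these 3 lists 5, 4 and 7 genes were tested, and none was called between M and P in limma without the array number as a block. Between neurons and layers over both types 1, 1 and 4 were called in limma, all lower in neurons. These were DCN, KCNJ8 and 4 endothelial genes. The 3 measured genes of GABA interneurons summed to 325 to 944 in M neurons and 381 to 597 in P neurons, and to 851 to 1160 in M layers and 500.1 to 582 in P layers. The part of these cells in the differences of ITGA8, SPON2 and TLL1 was not tested.

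The genes around the 3 were taken as 8 lists, of integrin subunits, alpha8 beta1 ligands, integrin adaptors, spondins and thrombospondins, tolloid proteases, their substrates, and BMP signalling. They held 108 genes, of which 86 had a single-symbol probe set and 55 were tested, each by its brightest probe set. Between M and P, limma without the array number as a block called 0 of 55 in each of the 3 comparisons (neurons, layers, both), where 0.296%, 0.159% and 0.83% of all probe sets were called. At an unadjusted p under 0.05 there were 4, 4 and 6 of the 55 (7.27%, 7.27% and 10.9%), against 7.47%, 5.80% and 9.94% of all probe sets, so these counts were near the background. With the number as a block 1 was called in neurons, SPP1, and 2 over both captures, FRAS1 and SPP1. That model called 189 and 473 of all 26383 probe sets in these comparisons. The median M minus P of the 55 genes over both captures was 0.07, against 0.03 for all probe sets tested.

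Among partners of ITGA8, ITGB1, the beta1 subunit that alpha8 needs, had a difference of -0.07 ± 0.20 between M and P over both captures (adjusted p = 0.961), from 0.39 ± 0.29 in neurons (0.837) and -0.52 ± 0.29 in layers (0.908). Its mean signal of 4.15 in M layers lay under the array medians, and those of the other groups ran from 14.3 to 31.1. The other 4 tested beta subunits lay between -0.09 for ITGB3 and 0.21 for ITGB2. The 7 tested alpha subunits ran from -0.31 for ITGA2 to 0.38 ± 0.14 for ITGAE (adjusted p = 0.331), an alpha subunit known from T cells, with a median of 0.19. The 11 adaptors and kinases ran from -0.22 for BCAR1, a docking protein of focal adhesions (adjusted p = 0.602), to 0.20 for ZYX, with a median of 0.01.

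The 5 tested ligands of alpha8 beta1 had values on both sides of 0. FRAS1, a basement membrane protein, had signals of 437 ± 86.1 in M neurons, 663 ± 122 in P neurons, 279 ± 102 in M layers and 496 ± 113 in P layers (SD, n = 3 each), and M minus P was -0.71 ± 0.17 over both captures (adjusted p = 0.0535 in limma). SPP1, osteopontin, had 5079 ± 989, 3026 ± 938, 2666 ± 814 and 2002 ± 230.5 in the same order, and M minus P was 0.57 ± 0.15 (adjusted p = 0.102). Arrays with the same number deviated together, and with the number as a block both passed over both captures, FRAS1 at an adjusted p of 0.00373 and SPP1 at 0.00286, and SPP1 also in neurons (0.77, adjusted p = 0.00849). A second FRAS1 probe set, dimmer than the first, gave -0.35 (adjusted p = 0.495 without the block). NPNT, nephronectin, the ligand of alpha8 beta1 in kidney development, differed by 0.33 ± 0.18 (adjusted p = 0.575), and FN1 and FREM1 by -0.09 and 0.04.

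None of the 5 tested relatives of SPON2 passed the test between M and P. RSPO2, an R-spondin that strengthens Wnt signalling, had -0.40 ± 0.17 over both captures (adjusted p = 0.427 in limma), RSPO3 had -0.49 ± 0.26 (0.558), and the thrombospondins THBS1, THBS3 and COMP lay between -0.20 and 0.19. SPON1 was not analysed here. Of the tolloid and astacin proteases and their enhancers only PCOLCE2, an enhancer of procollagen processing, reached the filter, with signals of 23.4 ± 11.9 in M neurons and 12.3 ± 0.743 in P neurons (SD, n = 3 each) and an M minus P of 0.42 ± 0.16 over both captures (adjusted p = 0.343 in limma). BMP1, the closest relative of TLL1 among them, stayed under the filter.

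The 10 tested substrates of tolloid proteases ran from -0.26 for the collagen gene COL7A1 to 0.27 for DCN, which encodes the small proteoglycan decorin. COL5A2, a fibrillar collagen chain, had the smallest p of these, at 0.21 ± 0.12 (adjusted p = 0.615 in limma), and CHRD, chordin, had 0.18. The 11 genes of BMP signalling ran from -0.46 ± 0.21 for ACVR2B, a type II receptor (adjusted p = 0.47), to 0.19 for ID3, a target of BMP signalling.

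**Figure D5:**
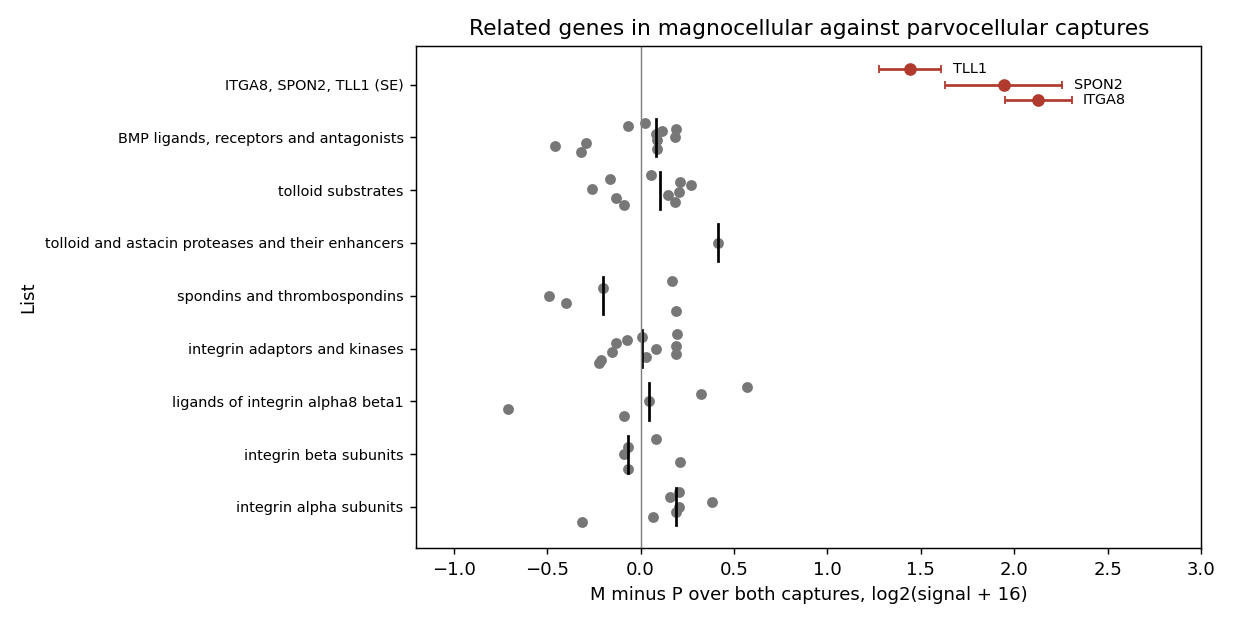
M minus P over both captures on the log2(signal + 16) scale for the 55 tested genes of 8 lists (grey points, black bars for list medians) and for ITGA8, SPON2 and TLL1 with their SE. The list genes lie between -0.71 for FRAS1 and 0.57 for SPP1, and the 3 genes, chosen by this difference, between 1.44 and 2.13.

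Between neurons and layers 21 of the 55 list genes were called over both layer types in limma (38.2%, against 24.1% of all probe sets), 10 higher and 11 lower in neurons. The list share takes only the brightest probe set of each gene, whereas the other takes every tested probe set. The gap between these shares is thus not read as an excess. The integrin subunits split: ITGAV (0.81 ± 0.20, adjusted p = 0.0051), ITGB1 (0.76 ± 0.20, 0.00956), ITGA7 (0.64 ± 0.14, 0.00178) and ITGAE (0.51 ± 0.14, 0.0138) were higher in neurons. ITGB8, a partner of alpha v in activating latent TGF-beta, was 1.16 lower there (-1.16 ± 0.16, adjusted p = 3.56e-05), and ITGB5 (-0.56), ITGAM (-0.48), a microglial subunit, and ITGA6 (-0.44) were lower too. ITGB1 had mean signals of 31.1 and 21.2 in M and P neurons against 4.15 and 14.3 in M and P layers, so the size of its difference rests on signals near or under the array medians, and ITGAV was dim too.

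Ligands and adaptors also had calls in each direction. SPP1 (0.75 ± 0.15, adjusted p = 0.00134 in limma) and FRAS1 (0.54 ± 0.17, 0.025) were higher in neurons, while NPNT (-0.98 ± 0.18, 0.000426) and FN1 (-0.52 ± 0.17, 0.0338) were lower. ILK, the integrin-linked kinase, was 0.67 higher and ITGB1BP1 0.55 higher, and FERMT2, or kindlin-2, an activator of integrins, had -0.997 ± 0.18 (adjusted p = 0.000416). RSPO2 was 0.56 higher in neurons. Among substrates of tolloid proteases COL5A2 was higher (0.84 ± 0.12, adjusted p = 5.46e-05), and DCN (-0.71), COL11A1 (-0.63) and LTBP1 (-0.42), which binds latent TGF-beta, were lower. ID3 was lower at -0.70 ± 0.14 (adjusted p = 0.00145). A second ID3 probe set went the other way (0.13, adjusted p = 0.582). Of the 4 DCN probe sets tested only the brightest was called, and the dimmest went the other way (0.17, adjusted p = 0.442). Of the 4 for COL5A2 another besides the brightest was called, also higher in neurons, and the dimmest went the other way (-0.37, adjusted p = 0.131). The remaining DCN and COL5A2 sets had the direction of the brightest and no call. Second probe sets of ITGA6, ITGB5 and FERMT2 were called lower in neurons as their brightest were, and the other ITGB1BP1 sets were called higher, while the other sets of ITGA7, ITGB8, FRAS1 and COL11A1 had the direction of the brightest and no call.

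Either other scaling ended the calls of FRAS1, ITGAE, ITGB1BP1 and RSPO2 (adjusted p from 0.0736 to 0.264), and with station as a block only FRAS1, ITGAV, ITGB8 and SPP1 were called, while FN1 turned to 0.29 (adjusted p = 0.694). No station held neuron and whole-layer captures of the same layer type, so station and capture can be separated in this comparison only through the model. Without 1 array 13 of the 21 calls stood throughout, while COL11A1 lost its call without P neuron array 3 (adjusted p = 0.0525) and FN1, FRAS1, ITGA6, ITGAM, ITGB1BP1, LTBP1 and RSPO2 each lost theirs for 4 to 8 of the 12 arrays.

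The signals of the 3 genes followed each other over the 12 rhesus arrays, with Pearson's r of 0.90 between ITGA8 and TLL1, 0.81 between SPON2 and TLL1 and 0.76 between ITGA8 and SPON2. All 3 share the M and P groups they were chosen by. Once group means were removed, r was -0.07, 0.14 and -0.38, so the likeness lay between the groups and not among the arrays of a group.

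Of 9348 genes compared over the same 12 arrays, those most like ITGA8 were ITPR1, an inositol trisphosphate receptor of calcium stores (r = 0.95), DDX24, an RNA helicase (0.94), PRAG1 (0.93), CGNL1, a protein of cell junctions (0.93), and SLC12A1, a sodium, potassium and chloride cotransporter known from kidney (0.93). Most like TLL1 were TOX2, a nuclear protein (0.94), GPC1, the cell-surface proteoglycan glypican-1 (0.93), GMPR, an enzyme of purine metabolism (0.92), DDX24 (0.91) and CGNL1 (0.91). ITGA8 and TLL1 thus had DDX24 and CGNL1 in common among their nearest 5. SPON2 was nearest to LBP, the lipopolysaccharide-binding protein (0.90), then SLC12A1 (0.89) and MYL7, a myosin light chain of the heart (0.86). ISM1, a secreted protein (0.85), and CRYGD, a lens crystallin (0.85), followed. The probe sets of MYL7 and CRYGD were dim, with mean signals of 17.2 and 21.9 against array medians of 11.9 to 14.8. These values describe arrays that share the M and P groups and carry no test.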

How the data were processed

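Laser-captured vervet tissue was read on 12 rhesus arrays in 4 groups of 3 and on 2 human arrays. Intensity values were deposited as linear MAS5 signals per probe set, per the submitters' processing notes, with no version or scaling stated. The 2% trimmed mean ran from 59.6 to 89.6, so no common scaling was seen, and correlations ran from 0.969 to 0.982 between arrays of a group. Of 52766 rhesus probe sets besides 99 controls, 24956 had 1 symbol in the platform annotation, 361 several and 27449 none. Genes are named from single symbols, and no coordinates or sequences are given because no genome was used.

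A model of 4 group means was fitted with limma 3.58.1 in R 4.3.3 to log2(signal + 16) over 12 arrays, on the 26383 probe sets whose mean reached the median of all (12.6 or more), and was tested on simulated data. Tests were two-sided, adjusted by Benjamini-Hochberg over all probe sets, and called under 0.05; the number of arrays limits the precision. Same-numbered arrays deviated together between M and P (correlations of 0.180 to 0.211 in neurons and 0.145 to 0.259 in layers). The number was therefore taken to pair them in that comparison. The model above has no such block. For the 3 genes, and for list genes between M and P, the blocked value is given where it changes the call. Cell type markers, and list genes between neurons and layers, are given without the block. With it 23 list genes were called between neurons and layers over both types, against 21. Alternatives changed the pseudocount, filter, scaling, variance trend, blocks and arrays used. Named genes are every probe set of the 3 genes, list genes called or with the smallest p of their list, and the 5 genes nearest in correlation; other list members named were chosen after their values were seen. Members, lists and tests were chosen with earlier results of these data known.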

Additional observations from a re-analysis of the deposited data

How the results depend on the processing

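Over 21 or 22 alternatives each, M minus P of the brightest probe sets kept its direction. A changed pseudocount or fewer arrays could not reverse it, since every M array lay above every P array in each gene. For ITGA8 the difference ran from 1.29 to 3.18 in neurons and 1.03 to 3.27 in layers. The ranges were 1.47 to 2.78 and 0.97 to 2.24 for SPON2, and 1.08 to 1.70 and 1.00 to 1.86 for TLL1. The size of ITGA8 rests on the pseudocount, since its P arrays are dim: a pseudocount of 1 gave 3.18, 3.27 and 3.22 in neurons, layers and both, and 64 gave 1.29, 1.03 and 1.16, with 1.08, 1.00 and 1.04 for TLL1. Station as a block gave 1.86 for TLL1 in layers. Other probe sets gave -0.146, 0.0581 and -0.0439 for ITGA8 in neurons, layers and both, and 0.27, 0.33 and 0.30 or 0.11, 0.14 and 0.13 for TLL1; the cause was not tested.

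Between neurons and layers, with the replicate block TLL1 over both types was 0.453 (adjusted p = 0.0388); same-numbered arrays correlated at 0.136 to 0.194 in M but down to 0.0997 in P, so numbers were not taken as pairs there. Leaving out 1 array gave 0.35 to 0.56 for TLL1 over both types, 0.23 to 0.82 for SPON2 over both and 0.23 to 1.42 in M, and -0.01 to 0.43 for ITGA8 in P, the reversed value of -0.00792 being that without P layer array 2 (adjusted p = 0.99). No other call of the 3 genes changed.

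Counts of called probe sets between M and P in neurons, layers and both were 78, 42 and 219. They were 45, 15 and 136 with no filter (more probe sets tested), 129, 69 and 512 after quantile normalization, 127, 64 and 467 with 1 trimmed mean, 189, 89 and 473 with the replicate block, 10, 14 and 51 with station as a block, and 26, 14 and 89 without number 2 (chosen after seeing the data, fewer arrays). With no intensity trend 27 were called in layers. Leaving out 1 array gave 28 to 87 in neurons, 10 to 43 in layers and 134 to 245 over both. Between neurons and layers 6355 were called over both, 2819 in M and 2682 in P, against 626, 36 and 112 with the station block, 1663 in M from only the groups compared, and 1373 to 3608 in M and 1034 to 3343 in P without 1 array. List genes called between M and P over both captures, 0 as reported, were 1 with a pseudocount of 64, 1 after quantile normalization, 2 with 1 trimmed mean, 2 with the replicate block (1 in neurons), 1 with station as a block and 0 to 1 without 1 array (FRAS1 without M neuron array 3, P neuron array 1 or M layer array 3, SPP1 without P neuron array 3 or M layer array 1); 21 between neurons and layers became 4 with station as a block. Comparisons over all 4 groups have no fit with only the groups compared.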
